A study of Mus musculus with 18 samples.

Results

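The 6 genes for serine/arginine-rich (SR) splicing factors, Srsf1, Srsf2, Srsf3, Srsf5, Srsf6 and Srsf7, were followed together with 3 genes for the CDC-like kinases Clk1, Clk2 and Clk4 and with Ccnl1, the gene for cyclin L1. They were found by gene symbol, and all 10 were present among the 55450 annotated genes of the table and passed the filter on low counts in every comparison. The cells were ED1SQ4, a murine lung cancer line derived from lung tumors of transgenic mice that overexpress cyclin E. They received vehicle or 0.5 µM CYC065, an inhibitor of CDK2 and CDK9, for 72 h. In each arm 1 condition is labelled all cell and was taken here as unsorted. Cells stained for 1 h with the DNA dye Vybrant DyeCycle Green were sorted by DNA content into a 2N (diploid) and a 4N (polyploid) condition. Total RNA depleted of ribosomal RNA was sequenced, and the 6 conditions, each in 3 columns, held 54750203 to 62795507 counts per condition.

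The 3 columns of a condition are titled as replicates but carried 1 library number. At genes with whole counts they differed by no more than sampling noise (chi-square per degree of freedom 0.992 to 1.02). Genes with estimated fractions of counts varied more (4.94 to 8.85). For the 10 genes the coefficient of variation among 3 columns was 0.465% to 6.44%, with a median of 1.74%. The columns were summed and counted as 1 library, so no condition had a replicate. The comparisons are between single libraries, with no test, and culture and treatment cannot be told apart. Levels are given in CPM (counts scaled to a common library total, with TMM factors), and the 95% intervals cover counting error alone. A gene was called higher or lower when its ratio passed 2-fold, the fold part of the study's criterion, which also asked for an adjusted P value, or the lower limit of 1.5-fold.

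The labelled cell type was checked with marker genes. Of 10 lung epithelium markers, Epcam, Cdh1 and Krt8 among them, none passed 1 CPM in any library, 2 had no count in all 6, and their summed level was 0.436 to 1.45 CPM. The 4 fibroblast markers summed to 5934 to 14911 CPM, and were higher with CYC065 in each pair (8815 and 14911 CPM in unsorted, 6792 and 11190 in 2N, 5934 and 9027 in 4N cells). Among 5 immune markers only Cd68, which is not specific to immune cells, passed 1 CPM, with 3.45 to 23.8 CPM. The cells thus lacked the defining markers of lung epithelium. The part of these marker levels in the results for the 10 genes was not tested.

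SR proteins bind short sequences in exons through their RNA recognition motifs and recruit the splicing machinery through a tail of arginine and serine repeats. That tail is phosphorylated by SRPK kinases in the cytoplasm and by the CLK kinases in the nucleus, where phosphorylation releases SR proteins from nuclear speckles. Cyclin L1 is found in the same speckles and pairs with CDK11, a kinase of transcription and splicing. Many genes of this group also make transcripts with an exon that brings a premature stop codon or with a retained intron, which are degraded or held in the nucleus.

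The annotation (GENCODE M21, mm10) lists such forms for every one of the 10 genes. Srsf1 has 2 transcripts marked for nonsense-mediated decay and 2 with a retained intron among 7. For Clk1 the numbers are 2 and 7 of 13, with 1 coding transcript. For Clk4 they are 3 and 7 of 14. Ccnl1 has 5 and 8 of 14, which leaves 1 coding transcript. The counts are sums over all forms of a gene, so a gene level here does not separate coding from non-coding forms.

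Upstream sequences of the RefSeq table (build GRCm38.p6) were matched by symbol for 9 of the 10 genes, and Clk1 had no entry. Those of 4 genes are shown, up to the base before the RefSeq start, because at least 100 bases before that start hold no annotated exon. The RefSeq start can differ from the GENCODE gene start given further on. Srsf2 and Srsf6 were lower after CYC065, and Srsf5 and Clk2 stayed within 1.5-fold. The run for Srsf2 is chr11:116853095-116853294 (minus strand), that for Srsf6 is chr2:162931258-162931507 (plus), that for Srsf5 is chr12:80945397-80945498 (plus) and that for Clk2 is chr3:89164545-89164794 (plus). Capitals mark matches on either strand. The TATA box was searched as TATAAA. The second motif, the box of the nuclear factor Y, was searched as CCAAT. The letters of the GC box were GGGCGG. For the E box they were CACGTG. The cyclic AMP response element, TGACGTCA, was searched too and has no match in the runs shown. Some GC box matches overlap each other.
Srsf2: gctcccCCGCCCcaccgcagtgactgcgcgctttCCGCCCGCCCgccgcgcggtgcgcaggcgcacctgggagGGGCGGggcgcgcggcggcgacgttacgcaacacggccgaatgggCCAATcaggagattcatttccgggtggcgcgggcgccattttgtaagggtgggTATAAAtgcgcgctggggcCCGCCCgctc
Srsf6: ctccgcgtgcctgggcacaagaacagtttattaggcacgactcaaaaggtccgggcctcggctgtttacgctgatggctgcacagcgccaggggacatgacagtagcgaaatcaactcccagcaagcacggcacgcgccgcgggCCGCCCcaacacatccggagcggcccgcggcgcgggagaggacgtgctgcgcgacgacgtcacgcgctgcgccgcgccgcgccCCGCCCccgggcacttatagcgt
Srsf5: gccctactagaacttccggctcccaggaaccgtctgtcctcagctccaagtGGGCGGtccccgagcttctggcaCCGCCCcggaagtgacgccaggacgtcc
Clk2: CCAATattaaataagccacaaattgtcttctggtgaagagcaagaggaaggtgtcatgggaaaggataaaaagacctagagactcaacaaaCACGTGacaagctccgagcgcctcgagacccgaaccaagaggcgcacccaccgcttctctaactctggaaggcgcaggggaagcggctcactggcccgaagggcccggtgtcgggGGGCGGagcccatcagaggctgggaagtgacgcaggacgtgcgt

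Over the 250 bases before the RefSeq start, a GC box was found in 8 of the 9 genes, against 32.7% of 32851 promoters of the same length. Srsf3 was the gene without one. TATAAA was found in Srsf2 and Srsf3, 29 and 18 bases before the start, against 12.4% of all promoters. CCAAT was found in Srsf2, Srsf3 and Clk2 (33.8% of promoters), CACGTG in Clk2 (6.02%) and TGACGTCA in Clk4 and Ccnl1 (1.55%). The RefSeq starts used for Srsf3 and Clk4 lie inside the genes as annotated by GENCODE. The TATAAA of Srsf3 and all matches of Clk4 thus fall within the annotated gene. The GC content ran from 56.8% at Srsf5 to 70.4% at Ccnl1, against a median of 52.4%. These are matches of letters and say nothing of binding.

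Of the 6 SR genes, 5 were lower in CYC065-treated than in vehicle-treated cells in all 3 comparisons, by 1.46-fold to 3.56-fold. Srsf5 was the exception, with levels 1.10-fold to 1.18-fold higher. Clk1 and Ccnl1 were higher after CYC065, by 1.48-fold to 2.11-fold, and Clk2 and Clk4 stayed within 1.5-fold. In 2N cells 4 of the 10 genes were lower by more than 2-fold, against 13.3% of the 14083 genes that passed the filter, and 1 was higher, against 14.9%. At 1.5-fold, 5 were lower (26.3% of genes) and 2 higher (24.1%). In 4N cells 4 were lower by 2-fold (11.4% of 14177 genes) and 1 higher (14.1%), and at 1.5-fold 4 were lower (23.8%) and 2 higher (24.0%). In unsorted cells 4 were lower by 2-fold (13.9% of 14076 genes) and 0 higher (11.7%), and at 1.5-fold 5 were lower (26.4%) and 1 higher (20.8%). The median log2 ratio of the 6 SR genes was -1.26, -1.36 and -1.24 in 2N, 4N and unsorted cells, against -0.07, -0.03 and -0.07 over all genes. For the 3 kinases it was -0.02, 0.13 and 0.43. CPM are shares of a library, so fewer cells of a type and less RNA per cell cannot be told apart.

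Srsf1 (chr11:88047373-88053755, plus strand), the prototype of the family, stood at 391 CPM in unsorted, 498 CPM in 2N and 529 CPM in 4N vehicle cells. After CYC065 it stood at 120 CPM in unsorted, 140 CPM in 2N and 179 CPM in 4N cells. The groups did not overlap, and the lowest vehicle library was 1.12 log2 units above the highest CYC065 library. The share of all genes without such overlap was not computed, for this gene or for those below. The log2 ratios were -1.83 (95% counting interval -1.87 to -1.80) in 2N, -1.56 (-1.59 to -1.53) in 4N and -1.70 (-1.74 to -1.66) in unsorted cells. In 2N cells, 2.63% of all genes compared had a lower ratio.

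Srsf2 (chr11:116849901-116853094, minus), also known as SC35 and used as a marker of nuclear speckles, had 273, 352 and 364 CPM in unsorted, 2N and 4N vehicle cells. The CYC065 libraries held 96.4, 118 and 111 CPM in the same order, and each lay below every vehicle library. Its log2 ratios were -1.57 in 2N (-1.61 to -1.53), -1.71 in 4N (-1.75 to -1.68) and -1.50 in unsorted cells (-1.55 to -1.46). Exons of Mettl23 and Mfsd11 on the opposite strand overlap 15.6% and 9.74% of the exon bases of Srsf2. Those genes had 245 to 353 and 1019 to 2134 counts per library, against 5308 to 21335 for Srsf2. Whether the counting used strand is not given in the sources used here, and without it such reads cannot be told apart.

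Srsf3 (chr17:29032628-29043373, plus), the smallest family member and a factor in mRNA export, had 289, 356 and 339 CPM in unsorted, 2N and 4N vehicle cells. With CYC065 it had 116, 144 and 128 CPM, again without overlap. The ratios were -1.30 (-1.34 to -1.27), -1.41 (-1.44 to -1.37) and -1.32 (-1.36 to -1.27) in 2N, 4N and unsorted cells. Of its 50-base stretches, 9.999% are also found in transcripts of other genes, most often in Gm12355, so a part of these counts was divided by estimation. Srsf1, Srsf2 and Srsf6 shared none on the same strand.

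Srsf6 (chr2:162931528-162937121, plus), known as SRp55, had 215, 256 and 267 CPM in vehicle cells and 114, 110 and 107 CPM after CYC065, in the same order. The sorted samples differed by more than 2-fold, with log2 ratios of -1.22 (-1.27 to -1.18) in 2N and -1.32 (-1.36 to -1.28) in 4N cells. Unsorted cells gave -0.92 (-0.96 to -0.88), short of 2-fold. Srsf7 (chr17:80200080-80207307, minus), known as 9G8 and also tied to mRNA export, showed the opposite arrangement. It had 104, 126 and 119 CPM in vehicle cells and 46.6, 80.7 and 81.6 CPM after CYC065. Its ratio passed 2-fold in unsorted cells alone (-1.16, -1.23 to -1.10), against -0.64 (-0.69 to -0.59) in 2N and -0.54 (-0.59 to -0.49) in 4N cells. Scaled by library size alone, the 2N ratio was -0.50 and within 1.5-fold.

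Srsf5 (chr12:80945504-80950507, plus), known as SRp40, kept a narrow range of 0.33 log2 units over the 6 libraries. It had 139, 146 and 138 CPM in unsorted, 2N and 4N vehicle cells and 154, 172 and 157 CPM after CYC065. All 3 CYC065 libraries were above all 3 vehicle libraries, but no ratio came near 1.5-fold, at 0.23 (0.19 to 0.28), 0.19 (0.15 to 0.23) and 0.14 (0.10 to 0.19) in 2N, 4N and unsorted cells. It shared 10.1% of its 50-base stretches with other genes, most often Gm12966. Per kilobase of the longest coding transcript, Srsf5 at 93.1 CPM ranked behind Srsf2 (185) and Srsf3 (136) in vehicle 2N cells and close to Srsf1 (92.9). In CYC065 2N cells it had the highest level of the 10 genes, 110 CPM per kilobase, followed by Srsf2 at 62.1 and Srsf3 at 55.0. The same was so in CYC065 4N cells (100 against 58.5 for Srsf2) and in CYC065 unsorted cells (98.2 against 50.8). Counts over all forms were divided here by the longest coding transcript, 1568 bases for Srsf5 and 5362 for Srsf1. All annotated exons cover 3988 and 5710 bases, so the order depends on the length chosen. In plain CPM, Srsf5 was also highest in CYC065 2N and unsorted cells, but Srsf1 was above it in CYC065 4N cells (179 against 157).

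**Figure D1:**
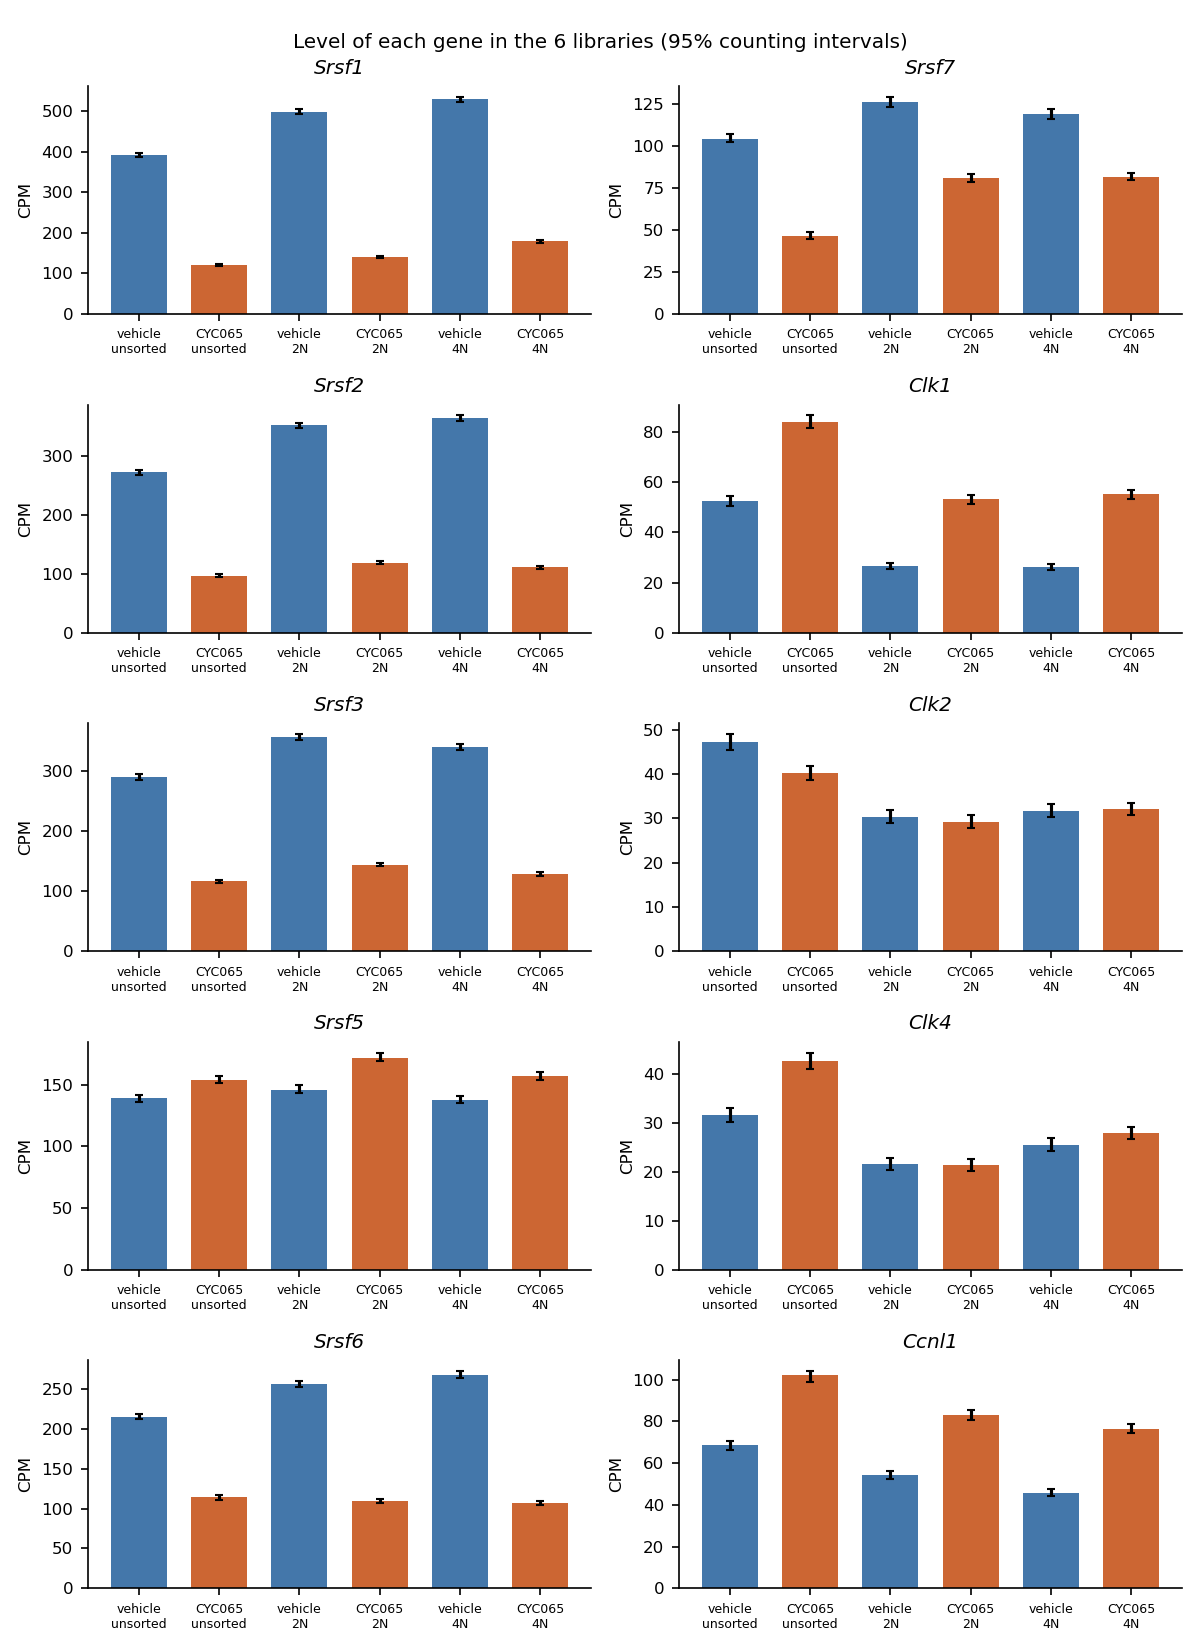
Level of each of the 10 genes in CPM (vertical axes from 0, each gene with its own scale) in the 6 libraries, blue for vehicle and orange for CYC065, with bars of the 95% counting interval. The orange bars of Srsf1, Srsf2, Srsf3, Srsf6 and Srsf7 are below every blue bar. The share of all genes separated in this way was not computed. Srsf5 ran from 138 to 172 CPM and Clk1 was highest in unsorted CYC065 cells at 84.3 CPM.

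Among the kinases, Clk1 was called higher after CYC065. Clk1 (chr1:58410189-58424066, minus), a nuclear kinase of SR proteins, had 52.5, 26.5 and 26.1 CPM in unsorted, 2N and 4N vehicle cells. After CYC065 it had 84.3, 53.2 and 55.2 CPM. Each CYC065 library was above the vehicle library of its own kind, but the unsorted vehicle library and the 2N CYC065 library were level (log2 ratio 0.02, -0.05 to 0.09). The log2 ratios to vehicle were 1.00 (0.91 to 1.09) in 2N, 1.08 (0.99 to 1.17) in 4N and 0.68 (0.62 to 0.75) in unsorted cells. The intervals of both sorted ratios reached below 2-fold, and without column 2 the ratio in 2N cells was 0.98.

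Ccnl1 (chr3:65946151-65958249, minus) had 68.5, 54.2 and 45.7 CPM in unsorted, 2N and 4N vehicle cells and 102, 82.9 and 76.5 CPM after CYC065. All 3 CYC065 libraries were above all 3 vehicle libraries. The ratios were 0.61 (0.55 to 0.68) in 2N, 0.74 (0.67 to 0.81) in 4N and 0.57 (0.51 to 0.63) in unsorted cells. Thus 1.5-fold was passed in the sorted samples and just missed in the unsorted ones. The unsorted ratio passed it without column 2 or 3 (0.59 or 0.60), with DESeq2 size factors (0.63) and with unsorted samples scaled by themselves (0.59). Fits on the columns gave 0.64 with edgeR and 0.67 with DESeq2. Scaling by library size alone (0.52) and leaving out column 1 (0.54) kept it short of 1.5-fold. The 2N call was lost when sorted samples were scaled by themselves (0.58). Its exons share 442 bases with the antisense gene Gm37305, which had 172 to 282 counts per library against 2680 to 5595 for Ccnl1.

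Clk2 and Clk4, kinases of the same family, stayed within 1.5-fold after CYC065. Clk2 (chr3:89164795-89176921, plus) had 47.3, 30.4 and 31.8 CPM in unsorted, 2N and 4N vehicle cells and 40.2, 29.3 and 32.1 CPM after CYC065. Its ratios were -0.06 (-0.15 to 0.04), 0.01 (-0.08 to 0.10) and -0.23 (-0.32 to -0.15) in 2N, 4N and unsorted cells. Clk4 (chr11:51261730-51281766, plus) had 31.6, 21.5 and 25.5 CPM in vehicle cells and 42.6, 21.3 and 27.9 CPM after CYC065. Its ratios were -0.02 (-0.13 to 0.10), 0.13 (0.03 to 0.23) and 0.43 (0.34 to 0.52). In 2N and 4N cells the signs for Clk2, and in 2N cells the sign for Clk4, turned with the scaling method. Clk1 shared 0.0711% and Clk4 0.177% of 50-base stretches with other genes.

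**Figure D2:**
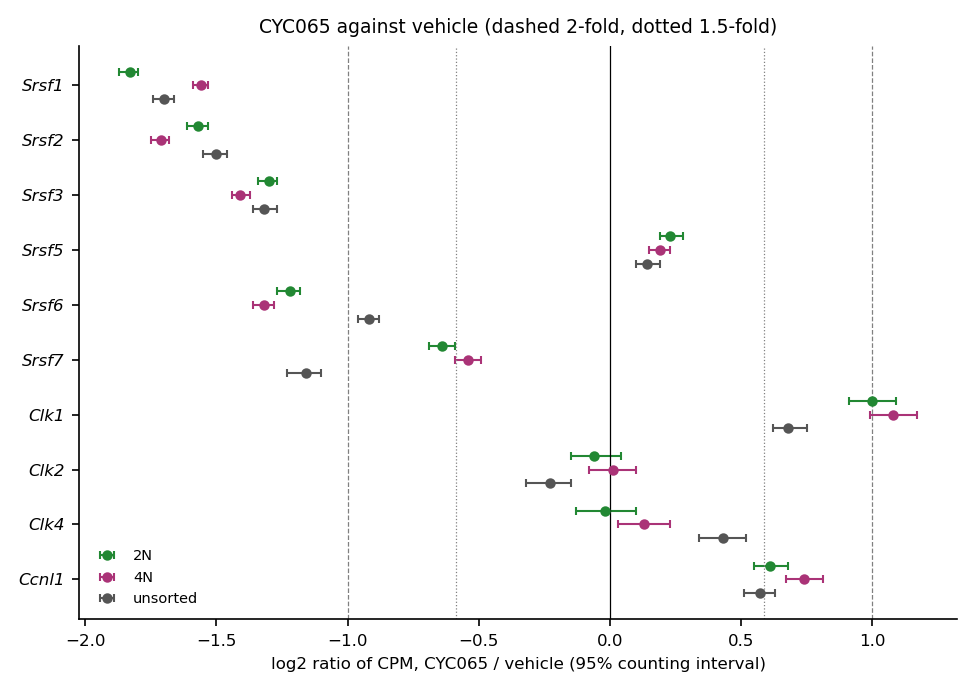
Log2 ratio of CPM, CYC065 over vehicle (horizontal axis), for each gene in 2N (green), 4N (magenta) and unsorted cells (grey), with 95% counting intervals and lines at 1.5-fold and 2-fold. Srsf1, Srsf2 and Srsf3 lie beyond 2-fold in all 3 comparisons, Srsf5, Clk2 and Clk4 stay inside 1.5-fold, and Clk1 and Ccnl1 lie to the right.

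The other genes of the splicing apparatus gave the frame for these values. Of 7 further SR family genes, Srsf12 had no count in any library, which allows at most 0.0545 CPM, and 6 were compared. At 1.5-fold, 3 of the 6 were lower in each comparison and 0 higher, with medians of -0.66, -0.59 and -0.80 in 2N, 4N and unsorted cells. Of all genes, 26.3%, 23.8% and 26.4% were lower at that fold in the same comparisons, and 24.1%, 24.0% and 20.8% higher. Of the 6 genes, Srsf9 and Tra2b had the lowest ratios. Srsf9 had the lowest ratio in sorted cells (-1.23 in 2N, -1.13 in 4N) and Tra2b, which activates exons as an SR-like factor, in unsorted cells (-1.23). Srsf11 had the highest, from -0.08 in 2N to 0.23 in unsorted cells.

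The hnRNP genes, whose products often oppose SR proteins at exons, were lower too. At 1.5-fold, 16, 16 and 15 of 26 were lower in 2N, 4N and unsorted cells, against 26.3%, 23.8% and 26.4% of all genes. Of the 26, 0 were higher, against 24.1%, 24.0% and 20.8%, and the medians were -0.79, -0.73 and -0.85. The lowest were Hnrnpab in 2N (-1.56) and unsorted cells (-1.63) and the splicing repressor Ptbp1 in 4N cells (-1.55). Of 30 genes for core spliceosome proteins, 20, 20 and 22 were lower and 0 higher, against the same all-gene shares. Their medians were -0.89, -0.72 and -0.84. Prpf31, a factor that joins the U4/U6 and U5 particles, was the lowest, at -2.50, -2.52 and -2.62. In 2N, 4N and unsorted cells, 24, 24 and 25 of the 26 hnRNP genes had ratios below 0. Of the 30 core spliceosome genes, 30, 28 and 29 did. The medians of all genes were also below 0, at -0.07, -0.03 and -0.07, and the share of all genes below 0 was not computed. The 6 SR genes had lower medians than the hnRNP and core spliceosome lists. The 6 further SR family genes compared had medians of -0.66, -0.59 and -0.80. Genes and lists were chosen with earlier results of these data known, so the lower medians are a description only and were not tested.

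Genes that act on SR proteins or carry SR-like domains behaved less uniformly. Of 23 listed, Srpk3 had no count in any library and 22 were compared. At 1.5-fold, 3 were higher and 5 lower in 2N, 4 higher and 2 lower in 4N, and 3 higher and 3 lower in unsorted cells. The all-gene shares were 24.1% higher and 26.3% lower in 2N, 24.0% and 23.8% in 4N, and 20.8% and 26.4% in unsorted cells. The counts of this list did not exceed them. The highest was Dyrk1b, a kinase of the family related to the CLKs, with 2.66, 2.64 and 1.18. The lowest were Ppp1ca, a catalytic subunit of protein phosphatase 1, in 2N (-1.04) and unsorted cells (-1.08), and Pnn, a speckle protein, in 4N cells (-1.14). Among Ccnl2, Cdk11b, Ccnk, Cdk12 and Cdk13, Ccnl2, the paralog of Ccnl1, had the highest ratio in each comparison (0.29, 0.47 and 1.02) and the cyclin L partner Cdk11b the lowest (-0.68, -0.37 and -0.22). At 1.5-fold, 1 of the 5 was lower in 2N, none was called in 4N and 1 was higher in unsorted cells.

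Nonsense-mediated decay is the pathway that degrades the unproductive SR transcripts. In 2N, 4N and unsorted cells, 7, 6 and 6 of its 14 listed genes were lower by 1.5-fold, against 26.3%, 23.8% and 26.4% of all genes. Of the 14, 0 were higher, against 24.1%, 24.0% and 20.8%. The lowest was Smg5, at -1.80, -1.41 and -1.54, and the highest were Smg8 in 2N (0.29) and Smg6 in 4N (0.26) and unsorted cells (0.50). Genes induced by stress and handling moved the other way. All 13 of the immediate early and handling list had ratios above 0 in each comparison, with medians of 2.02, 1.49 and 1.10, from 0.20 for Jun in 4N and unsorted cells to 3.86 for Fos in unsorted cells. At 1.5-fold, 12 of the 13 were higher in each comparison, against 24.1%, 24.0% and 20.8% of all genes. Of the 13, 0 were lower, against 26.3%, 23.8% and 26.4%. The summed level of this list was 658, 689 and 502 CPM in unsorted, 2N and 4N vehicle cells and 1390, 1631 and 974 CPM after CYC065. The part of these genes in the results for the 10 genes was not tested.

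**Figure D3:**
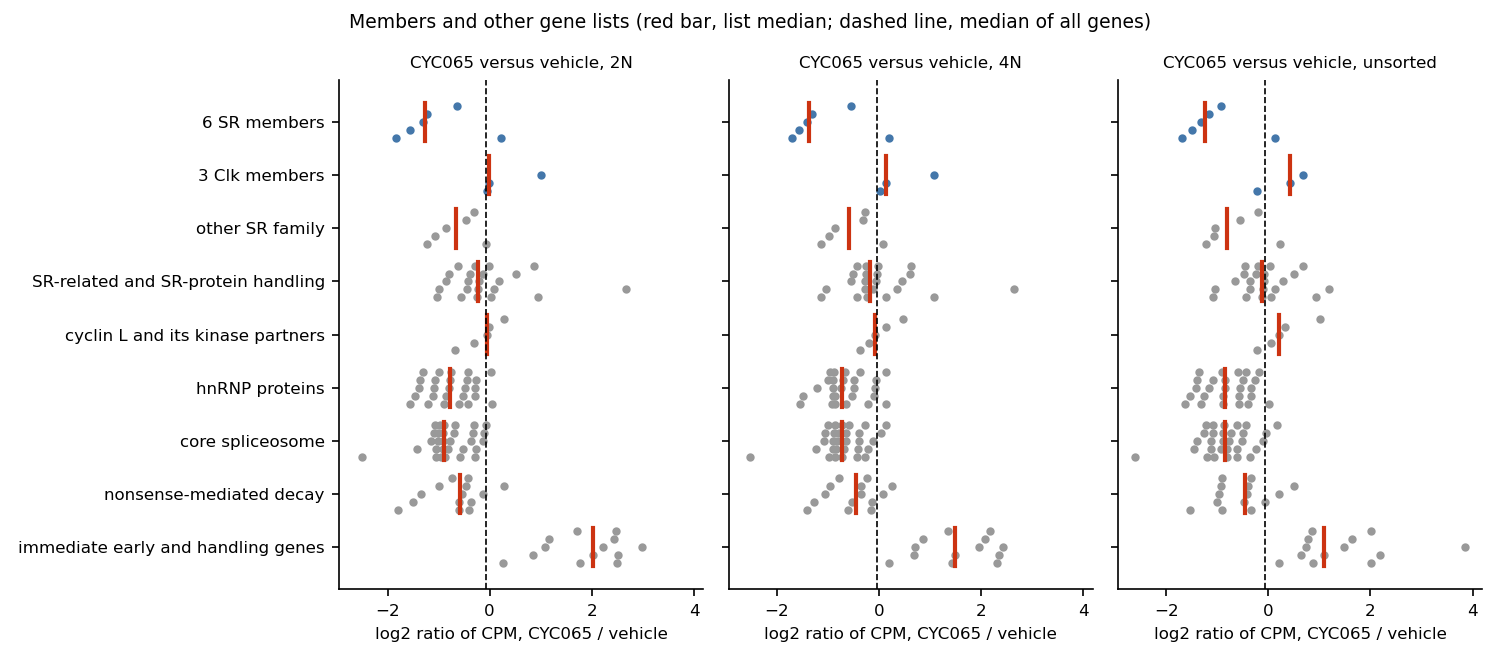
Log2 ratio of CPM, CYC065 over vehicle (horizontal axes), for single genes (points) of the SR genes and kinases (blue) and of 7 other lists (grey) in 2N, 4N and unsorted cells, with the list median in red and the median of all genes dashed. The SR genes have medians of -1.26, -1.36 and -1.24, below those of the hnRNP and core spliceosome lists, and the immediate early list lies to the right. Genes and lists were chosen with earlier results of these data known.

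The comparison of 4N with 2N cells addressed the study's question of how cells labelled polyploid differ from those labelled diploid. The sort was by DNA content alone, so cells in G2 or mitosis can be part of the 4N samples. None of the 10 genes differed by 1.5-fold, in either arm. With CYC065 the background was 4.57% of 14173 genes higher and 5.12% lower in 4N cells, and with vehicle 3.83% of 13358 higher and 5.29% lower. The sort itself was visible in 12 G2/M genes, all with a higher level in 4N than in 2N cells (median log2 ratio 1.27 with CYC065 and 0.70 with vehicle).

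Within those limits, Clk4 had the largest ratio, 0.39 (0.29 to 0.50) with CYC065 and 0.25 (0.14 to 0.36) with vehicle. Srsf1 was next with CYC065, at 0.36 (0.32 to 0.40), against 0.09 (0.06 to 0.11) with vehicle. Ccnl1 was lower in 4N cells, at -0.12 (-0.17 to -0.06) with CYC065 and -0.25 (-0.32 to -0.17) with vehicle. The remaining ratios lay between -0.17 for Srsf3 and 0.14 for Clk2, both with CYC065.

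The difference between the arms, the 4N/2N log2 ratio with CYC065 minus that with vehicle, was largest for Srsf1, at 0.27 (0.23 to 0.32). For Clk1 it was 0.08 (-0.05 to 0.20) and for Clk4 0.15 (0.00 to 0.30). Srsf2 had the lowest, -0.14 (-0.20 to -0.09). No gene of the 10 passed 1.5-fold, against 8.55% of 14474 genes higher and 7.67% lower. The immediate early and handling genes were lower in 4N than in 2N cells, in 13 of 13 cases with CYC065 (median -0.81) and in 12 of 13 with vehicle (-0.52). At 1.5-fold, 10 of the 13 were lower with CYC065 (5.12% of all genes) and 5 with vehicle (5.29%). In either arm 0 were higher (4.57% and 3.83%).

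**Figure D4:**
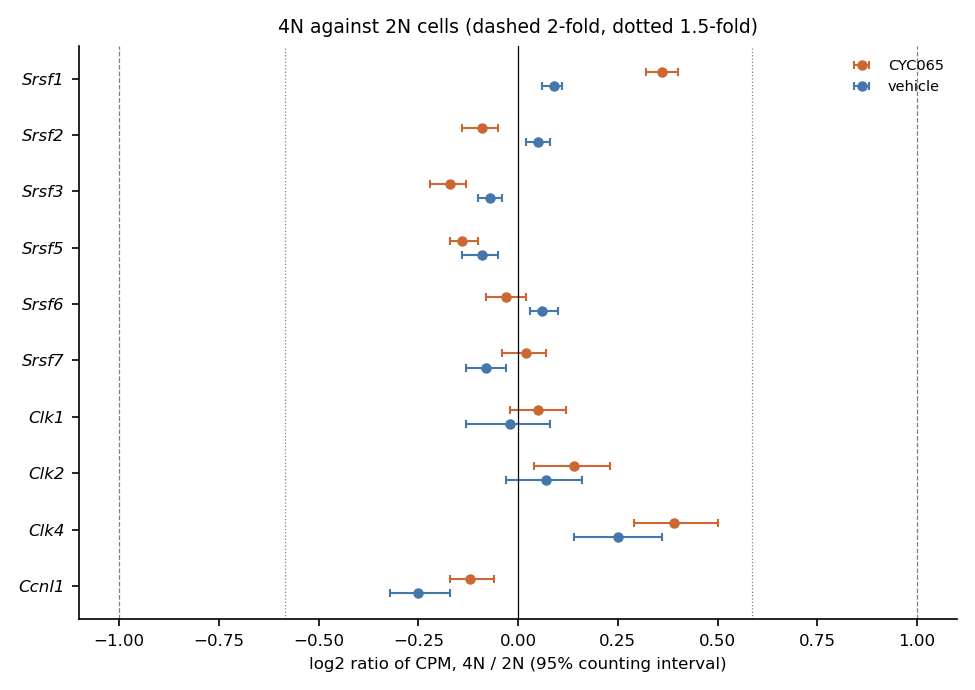
Log2 ratio of CPM, 4N over 2N cells (horizontal axis), for each gene with CYC065 (orange) and vehicle (blue), with 95% counting intervals and lines at 1.5-fold and 2-fold. No gene reaches 1.5-fold, and Clk4 (0.39) and Srsf1 (0.36) with CYC065 lie farthest to the right.

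Unsorted and sorted cells can differ by handling as well as by composition, and the 2 cannot be told apart. How the samples labelled all cell were handled is not given in the sources used here. This comparison was chosen after the values were seen. In vehicle cells the 3 kinases and Ccnl1 were higher in the unsorted library than in either sorted one. The distance from the mean of the sorted libraries was 1.00 log2 units for Clk1, 0.60 for Clk2, 0.46 for Ccnl1 and 0.44 for Clk4. Srsf1, Srsf2, Srsf3, Srsf6 and Srsf7 were below both sorted libraries, by -0.39, -0.39, -0.26, -0.28 and -0.23, and Srsf5 lay between them. Thus 4 of the 10 genes lay above and 5 below both sorted libraries, near the shares of 40.5% and 44.9% among 13805 genes.

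In CYC065 cells the same 4 genes were again above both, by 0.81 for Clk4, 0.64 for Clk1, 0.39 for Clk2 and 0.35 for Ccnl1, and Srsf6 was above by 0.07. Srsf7 was farthest below, at -0.80, followed by Srsf1 (-0.40), Srsf2 (-0.25), Srsf3 (-0.23) and Srsf5 (-0.10). These were 5 genes above and 5 below, against 38.4% and 43.3% of 14386 genes. For Clk1 the distance between unsorted and sorted vehicle cells (1.00) equaled its log2 ratio of CYC065 to vehicle in 2N cells (1.00).

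**Figure D5:**
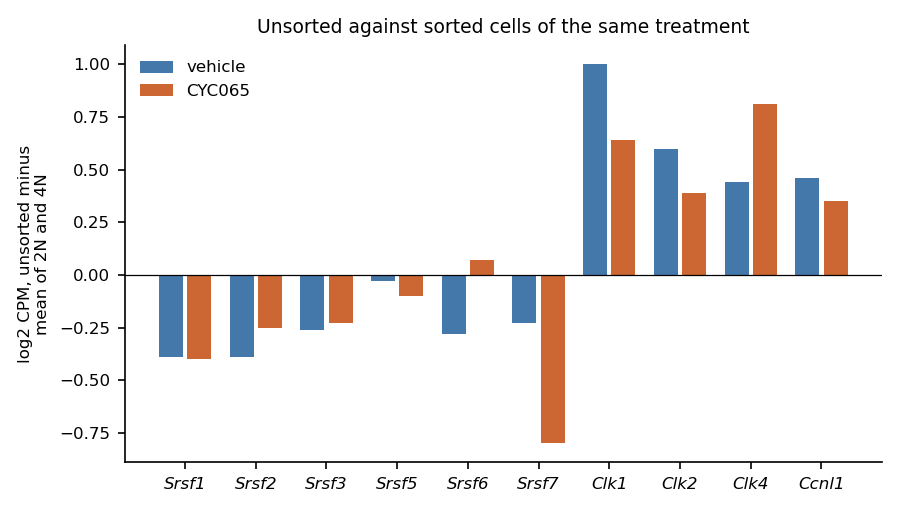
Difference in log2 CPM between the unsorted library and the mean of the 2N and 4N libraries of the same treatment (vertical axis) for each gene, blue for vehicle and orange for CYC065. Clk1, Clk2, Clk4 and Ccnl1 are above 0 in both arms, and Srsf1, Srsf2, Srsf3, Srsf5 and Srsf7 are below 0.

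The genes with the most similar course over the 6 libraries, by the root mean square difference of centered log2 levels among 6450 genes, were Cstf2 and Cad for Srsf1 (0.085 and 0.088), Pmpca and Cops6 for Srsf2 (0.068 and 0.076), and Tpi1 and Eif2b5 for Srsf3 (0.042 and 0.075). For Srsf6 they were Acp2 and Polr3d (0.045 and 0.057), and for Srsf7 Nup54 and Nutf2 (0.076 and 0.086). For Clk1 they were Amer1 and Arfgap3 (0.071 and 0.100), for Clk4 Ldlrad3 and Ogt (0.113 and 0.127), and for Ccnl1 Grasp and Kdm6b (0.050 and 0.052). With 6 points such likeness is a description only.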

How the data were processed

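The authors sequenced ribosomal RNA-depleted total RNA with a stranded kit as paired-end reads. The deposited values are RSEM expected counts per gene (mm10, GENCODE M21), after read trimming with Cutadapt 1.18 and alignment with STAR 2.7.0f. The submitters' processing notes name RSEM 1.3.1 and bcl2fastq 2.17. These estimated counts divide ambiguous reads between genes.

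The 3 columns of each condition were summed and counts were rounded for fits on single columns. TMM factors over the 6 sums came from edgeR 4.0.16 in R 4.3.3, with a prior count of 0.5. A comparison covered the genes that reached 30 summed counts in either or any of its conditions. Counting intervals were exact (Clopper-Pearson for ratios, Poisson for levels) at 95%, by the delta method for the difference of ratios. They do not cover reads that were not independent. Named outside the 10 genes were the highest and lowest gene of each list with at least 300 counts, and the 2 most similar genes for those ranging over 1 log2 unit. The steps were run on simulated counts that held sampling noise only. Such a run cannot show how they fare with spread between columns or cultures. The genes, lists and rules were chosen with earlier results of these data known. Alternatives were other scalings, filters and priors, DESeq2 1.42.0 and edgeR fits on the columns, and leaving out each column.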

Additional observations from a re-analysis of the deposited data

Results flagged for a closer look

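Srsf2 had 4N/2N ratios of opposite sign in the vehicle and CYC065 arms. The log2 ratio was -0.09 with CYC065 and 0.05 with vehicle, each with a 95% counting interval clear of 0. The difference between the arms was not tested, since each condition was 1 library, and both ratios are well within 1.5-fold.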

How the results depend on the processing

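The counts of genes past 2-fold or 1.5-fold stayed within 1.5 times the reported count in all 156 recomputations, and no called ratio of the 10 genes changed sign. A part of these recomputations could show no change. The other filters could not remove any of the 10 genes, which had at least 1207 counts in every library. For the 4N/2N ratios and their difference the reported count was 0 and stayed 0. Of 360 recomputed ratios, 29 moved by more than their counting interval. Clk1 in 2N cells fell within 2-fold when sorted samples were scaled by themselves (0.97) and without replicate 2. Leaving out 1 column gave 4 to 5 genes past 2-fold and 7 past 1.5-fold in 2N cells, and 6 to 7 past 1.5-fold in unsorted cells. Scaling by library size moved the median of all genes from -0.07 to 0.07 in 2N and from -0.03 to 0.11 in 4N cells. The signs that turned with scaling were those of Clk2 and Clk4 against vehicle and of Clk1 between 4N and 2N, all of ratios near 0. The 4N/2N ratio of Srsf7 with CYC065 went from 0.02 to 0.00 with DESeq2 size factors. Deviations of columns with the same number had correlations from -0.36 to 0.31 over 45 pairs, with a median of 0.00. Single pairs thus deviated together or oppositely, without a common direction, and the main values did not use the numbers to pair samples. An edgeR quasi-likelihood fit on the columns with the replicate block called 5 genes past 2-fold and 6 past 1.5-fold in 2N cells, the same numbers as without the block. Its adjusted P values compare libraries and not cultures. With 1 library per condition the spread between cultures is not known.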
